A study of Mus musculus with 4 samples.

Results

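EN5 is 1 of 13 subtypes into which the authors divided the excitatory neurons of the mouse superior colliculus, and its members were taken as all nuclei that carry the label EN5 in the deposited table of nuclei. The label was held by 261 of 9724 nuclei, which is 261 of 4093 excitatory nuclei. The mice were of the strain C57BL/6J, untreated and with no altered gene, and nuclear RNA of the superior colliculus was sequenced at embryonic day 19, called E19 here, and at 3 ages after birth, P4, P8 and P21, each named for the day. Each stage was 1 library, made from pooled animals; how many were pooled is not given in the sources used here. There were thus no replicate libraries: no test was made, every interval below is a 95% interval for counting error only, and a difference between stages is a difference between 2 libraries.

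The superior colliculus is a layered midbrain structure that receives visual input in its upper layers and sends output that orients the eyes and head. Its excitatory neurons release glutamate, which the transporter encoded by Slc17a6 loads into synaptic vesicles. Around birth these neurons extend axons and dendrites under guidance receptors such as the Robo and Dcc families, and over the following weeks they form and refine synapses, exchanging immature cytoskeleton proteins for mature channels and receptors.

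The promoters of 3 genes that EN5 nuclei held at more than 2-fold the mean level of the other subtypes are shown first, because these genes recur in the results: Robo3, an axon guidance receptor of the Slit receptor family, Kcnab1, a cytoplasmic beta subunit of voltage-gated potassium channels, and Rorb, a nuclear receptor of the retinoid-related orphan group. RefSeq start sites on GRCm38.p6 were used, the sequence runs 5′ to 3′ towards the start, and bases inside the GENCODE gene were left out of the sequences shown. Capitals mark any match, on either strand, to the 4 searched motifs AGGTCA (nuclear receptor core), TGCTGA (MAF core), CACCTG (ZEB-type E-box) and TGACAG (MEIS core), which can overlap, as the MAF and MEIS cores do before Rorb.
Robo3, minus strand, chr9:37433247-37433425: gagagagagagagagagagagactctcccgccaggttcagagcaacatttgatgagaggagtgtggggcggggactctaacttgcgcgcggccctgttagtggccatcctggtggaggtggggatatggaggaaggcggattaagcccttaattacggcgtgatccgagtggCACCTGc
Kcnab1, plus strand, chr3:64948962-64949211: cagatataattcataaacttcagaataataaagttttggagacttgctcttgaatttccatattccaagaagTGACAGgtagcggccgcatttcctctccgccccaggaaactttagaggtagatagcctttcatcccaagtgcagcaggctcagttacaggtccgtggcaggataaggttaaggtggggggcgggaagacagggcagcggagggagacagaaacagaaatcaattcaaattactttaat
Rorb, minus strand, chr19:19111197-19111446: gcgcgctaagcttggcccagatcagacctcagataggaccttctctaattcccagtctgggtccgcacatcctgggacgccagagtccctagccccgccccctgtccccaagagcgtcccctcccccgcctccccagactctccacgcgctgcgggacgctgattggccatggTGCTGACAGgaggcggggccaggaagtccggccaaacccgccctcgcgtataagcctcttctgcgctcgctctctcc
RefSeq windows were found for 8 of the 12 genes that stood highest above the other subtypes, 12 windows in all. Of these 12 windows, 0 held AGGTCA, 0 held TGCTGA, 3 held CACCTG and 3 held TGACAG. These counts used all bases of a window before its RefSeq start, also those inside the GENCODE gene, as for Prmt8 and Mgll. The windows with CACCTG include overlapping windows of Prmt8 that share the same match. Among all 32851 windows of the same length, AGGTCA was in 14.02%, TGCTGA in 16.1%, CACCTG in 17.2% and TGACAG in 15.9%. The Kcnab1 window shown lies far before the GENCODE start of the gene at 65109384. Another Kcnab1 window, chr3:65108764-65109013, is nearer that start and held none of these motifs. A further window inside the gene held TGACAG. A match is a description of the letters only.

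The E19 library held 41 EN5 nuclei, P4 46, P8 103 and P21 71. Their share of excitatory nuclei was 3.06% (exact Clopper-Pearson interval 2.21 to 4.13) at E19 and 3.81% (2.81 to 5.06) at P4. At P8 it was 11.9% (9.80 to 14.2) and at P21 10.4% (8.22 to 12.9). The intervals of the first 2 libraries overlapped each other, as did those of the last 2, and the earlier pair lay wholly below the later pair. Of all nuclei of a library, EN5 was 1.59%, 1.93%, 4.11% and 3.16% in the order of the stages. Among the 13 excitatory subtypes EN5 ranked 8, 9, 2 and 4 by size in the order of the stages. A share depends on the other subtypes as well: EN1 went from 514 nuclei at E19 to 138 at P21, EN2 from 287 to 36, and EN7 had 191 nuclei at P4 and 1 at P8.

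**Figure D1:**
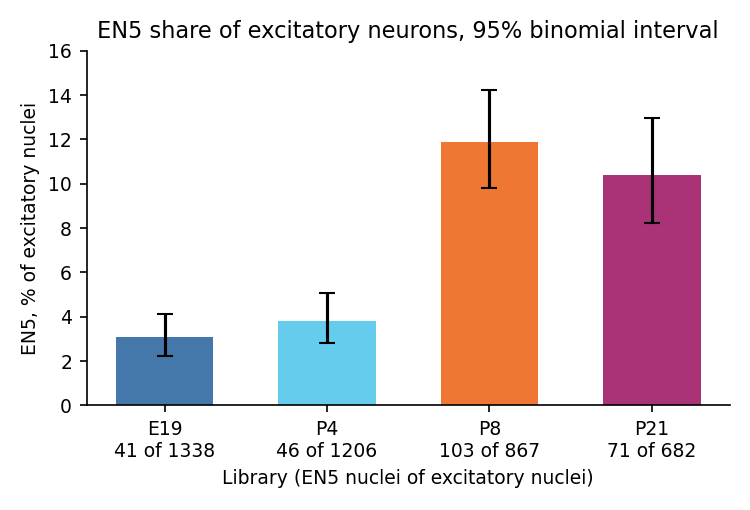
Bars show EN5 nuclei as a percent of the excitatory nuclei of each library, and the error bars are exact 95% binomial intervals for counting error. The E19 and P4 bars, at 3.06% and 3.81%, lie below the intervals of P8 and P21.

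EN5 nuclei held 287200 UMIs (unique molecular identifiers, each standing for 1 captured RNA molecule) in E19, 449880 in P4, 1387235 in P8 and 1124169 in P21, so the E19 levels carry the widest counting intervals. The median nucleus held 7610, 9190.5, 12751 and 15719 UMIs in the same order, against 8145, 11859.5, 14490 and 19947 in the other excitatory nuclei. Other deposited labels of the same nuclei largely coincided with EN5: 249 of the 261 were in the authors' cluster 14, which held 250 nuclei in all, and 254 carried label 17 of a reference set that had 257 nuclei with that label. In a second reference set 166 EN5 nuclei were labelled ESC2, 92 ESC1 and 3 ISC5. No EN5 nucleus shared its barcode with a nucleus of another library (0 of 261, against 18 of 9724 overall).

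The excitatory label is next set beside its markers. As the labels were made from expression in the same nuclei, these levels describe the label and test nothing. Summed UMIs were scaled to CPM, the count of a gene per 1000000 UMIs of EN5 in that library. Slc17a6, the vesicular glutamate transporter of most subcortical excitatory neurons, was at 292, 236, 187 and 161 CPM at E19, P4, P8 and P21, beside means of 292, 245, 185 and 180 CPM over the other excitatory subtypes. After each nucleus was thinned to 2800 UMIs, Slc17a6 was found in 46.3%, 43.5%, 41.7% and 38.6% of EN5 nuclei and in 13.4%, 12.4%, 6.0% and 1.0% of inhibitory nuclei, which should lack it. The cortical transporter Slc17a7 had 0 UMIs in EN5 in all 4 libraries. Gad2, which makes the inhibitory transmitter GABA, was found in 0.0% to 7.1% of thinned EN5 nuclei at P4, P8 and P21 and 7.3% at E19, and in 64.1% to 70.8% of inhibitory nuclei. The 5 inhibitory identity genes summed to 143, 102, 83.6 and 84.5 CPM in EN5, beside 148, 129, 110 and 99.2 CPM in the other excitatory subtypes and 871 to 1128 CPM in inhibitory nuclei. The 12 genes of other transmitters summed to at most 8.89 CPM in EN5 in any library.

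Oligodendrocyte and epithelial markers moved with stage in EN5 as in the other subtypes. The 8 oligodendrocyte markers summed to between 37.8 and 52.2 CPM in the first 3 libraries and 275 CPM at P21, beside 256 CPM in the other excitatory subtypes at P21 and 22412 CPM in the oligodendrocyte lineage. At P21 all 8 were above 0, and their 309 UMIs lay in 70 of 71 EN5 nuclei with at most 11 in any nucleus. The 6 epithelial and ependymal markers had 36 UMIs (80.0 CPM) at P4, against 0, 1 and 0 UMIs in the other libraries, with 85.5 CPM in the other excitatory subtypes at P4. The 6 markers of dividing cells reached 16.01 CPM at P21 beside 2.80 in the other subtypes, and all 18 of those UMIs were in 1 nucleus. The 10 astrocyte markers summed to between 92.5 and 171 CPM, below the 106 to 201 CPM of the other subtypes in each library.

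To describe what sets EN5 apart, the EN5 level was divided by the mean level of the other excitatory subtypes that had 20 or more nuclei in the same library (12 at E19 and P4, 10 at P8 and P21), each weighted alike, after adding 5 CPM to both, which understates the ratio of low genes. The subtypes were built from the same nuclei and genes, so these ratios describe the label and test nothing. Of 8671 genes with at least 20 CPM on either side in some library, 37 (0.427%) were 2-fold or more higher in EN5 in every library and 143 (1.65%) were 2-fold or more lower in every library. The median log2 ratio over all these genes was between -0.04 and -0.01 in the 4 libraries. EN5 was the highest of all subtypes in every library for 19 of the 37 higher genes, and the lowest in every library for 16 of the 143 lower genes. The mean of the other subtypes can be raised by a few of them. Without P21, where fewer libraries had to pass, the higher count was 70. With 20 CPM added in place of 5 the lower count was 78. The 12 highest and 8 lowest genes by the least extreme of the 4 ratios were taken for description.

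Robo3 had the highest least extreme ratio. Its gene lies at chr9:37415669-37433246 on the minus strand and overlaps no other counted gene. Robo3 was at 160, 122, 102 and 91.6 CPM in EN5 at E19, P4, P8 and P21, and the mean of the other subtypes was 1.86, 15.0, 6.76 and 10.9 CPM. The log2 ratio was 4.59 at E19 (interval 4.13 to 5.06) and 2.60 at P21 (2.28 to 2.93), with 2.67 and 3.19 in the P4 and P8 libraries. At E19 no other subtype exceeded 7.88 CPM. At P4 EN10 held 128 CPM and at P21 EN6 held 94.8 CPM, both within the EN5 interval, so EN5 was the highest subtype only at E19 and P8. Robo3 UMIs were present in 24 of 41, 24 of 46, 65 of 103 and 49 of 71 EN5 nuclei, and no nucleus carried more than 10.9% of them.

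Kcnab1 separated EN5 from every other subtype at every stage. Its gene, at chr3:65109384-65378223 on the plus strand, overlaps 2 counted genes on the opposite strand. The level was 575, 593, 647 and 1194 CPM at E19, P4, P8 and P21, and the highest other subtype reached 180 CPM (EN7), 247 (EN11), 260 (EN1) and 330 (EN6). After thinning, 61.0%, 60.9%, 66.02% and 85.7% of EN5 nuclei had a Kcnab1 UMI, against 12.4% to 31.5% of inhibitory nuclei. Other genes for which EN5 was the highest of all subtypes in each library were Itga7, a laminin-binding integrin subunit, Hmcn1, the extracellular protein hemicentin, Rftn1, a lipid raft protein, Maf, a transcription factor of the bZIP group, Spon1, the matrix protein F-spondin, Prkd1, a protein kinase D, and Lhfp.

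Itga7 was at 62.7, 77.8, 87.9 and 135 CPM in the 4 libraries in order of age, and the highest other excitatory subtype did not exceed 40.2 CPM. Astrocytes held Itga7 at 37.8, 70.3, 83.0 and 64.0 CPM, within the EN5 interval at E19, P4 and P8. Maf was at 209, 316, 304 and 293 CPM. The nearest other subtype for Maf was EN2 with 186 CPM at E19, within the EN5 interval of 159 to 269, and EN6 with 105 to 123 CPM at the later stages. Spon1 was at 226, 300.1, 395 and 318 CPM, with EN12 next at 191 CPM at P4 and 174 at P21. Spon1 was also found in 67.9% of thinned nuclei of the oligodendrocyte lineage at P4.

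Mgll, Prmt8 and Megf11 were, like Robo3, as high in a neighbouring subtype in at least 1 library. Mgll encodes monoacylglycerol lipase, which breaks down an endocannabinoid. It was at 870.5, 649, 584 and 479 CPM in EN5 and higher in EN6 at E19, P4 and P8, with 1149.6 CPM, 883 and 966 CPM. At P21 EN6 was at 428 CPM, below the EN5 interval of 439 to 521. Prmt8, a membrane-bound arginine methyltransferase of the brain, was at 299, 342, 437 and 330.0 CPM, and EN6 was at 357 CPM at E19, within the EN5 interval of 239 to 370. Megf11, a transmembrane protein known for spacing retinal neurons, fell from 2343 CPM at E19 to 600.4 CPM at P21, where EN9 was at 709 CPM. Rftn1, at 818, 487, 525 and 290.0 CPM, had EN6 as its nearest subtype throughout, at 198 to 377 CPM.

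The 8 lowest genes were at higher mean levels in the other subtypes, and EN5 held few UMIs of them except for Gpc5. Meis2, a homeodomain transcription factor, was at 41.8, 31.1, 37.5 and 24.9 CPM in EN5 against means of 794, 478, 572 and 342 CPM, with EN12 at 1540 CPM or more in each library. EN6 was at 109 CPM at E19 but as low as EN5 later, at 27.1, 37.3 and 18.2 CPM. EN7 was at 18.4 CPM at P4, so low Meis2 was not particular to EN5. Slit3, a ligand of Robo receptors, had 0, 3, 12 and 5 UMIs in EN5. At E19 the 0 of 287200 UMIs allows up to 10.4 CPM (3 counts), so Slit3 was at least 14.5-fold higher in the mean of the other subtypes at 151 CPM. For Slit3, EN5 ranked 10 of 13 subtypes at E19, 11 of 13 at P4, 10 of 11 at P8 and 9 of 11 at P21. The lowest other subtype was at 0 CPM in each library, so low Slit3 was not particular to EN5 either. Tfap2d, a transcription factor of the TFAP2 family, had 4, 1, 1 and 2 UMIs against means of 185 to 62.3 CPM. Gpc5, a glypican that carries heparan sulfate on the cell surface, was at 20.9, 104, 105 and 157 CPM against 379, 728, 973 and 1084 CPM, and had a UMI in 4 of 41, 24 of 46, 45 of 103 and 45 of 71 EN5 nuclei. Tmem132c, Zmat4, the antisense RNA B230323A14Rik and Zfp521 completed the list, with 29 UMIs or fewer in any library. EN5 was the lowest of all subtypes in each library for Zmat4 among these 8 genes. B230323A14Rik reached its highest levels in EN3 and EN4, and EN5 ranked between 6 and 9 among the subtypes for it.

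**Figure D2:**
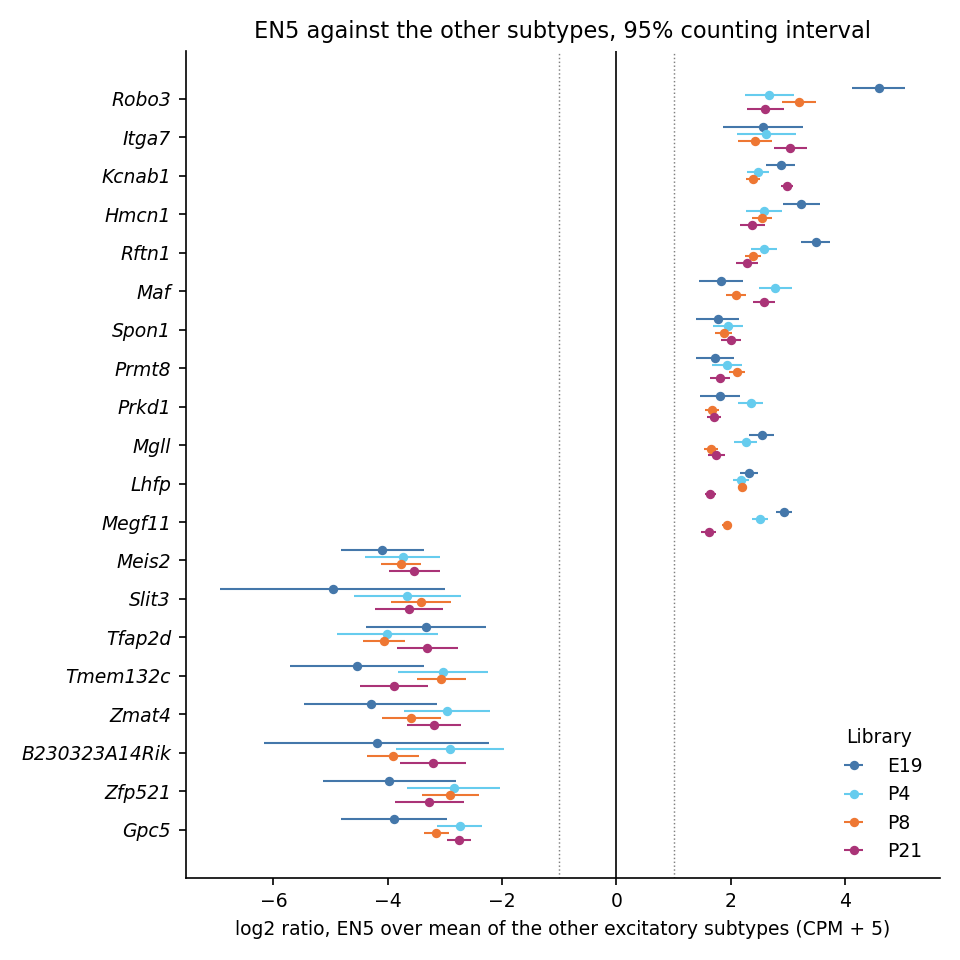
Each point is the log2 ratio of EN5 to the mean of the other excitatory subtypes (CPM plus 5) in 1 library, with a 95% counting interval, for the 12 highest and 8 lowest genes. Dotted lines mark a 2-fold ratio, and every point lies outside them; Robo3 at E19 stands at 4.59.

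Genes are next taken by role, from lists chosen with earlier results of these data known. Among transcription factors of midbrain and brainstem neurons, 61 of 119 passed the level filter, 2 were 2-fold or more higher in EN5 in every library and 13 were lower, beside the 0.427% and 1.65% of all genes. The median log2 ratio of the list was -0.42, beside -0.03 for all genes. The 2 higher were Rorb and Zeb2. Rorb, at chr19:18930605-19111196, was at 1919, 1371, 1326 and 989 CPM in EN5, and only EN6 was above it in each library, with 6848, 3862, 3037 and 1560.0 CPM. The next subtype, EN9, was at 896 CPM at E19 and 866 CPM at P21, the latter below the EN5 level by less than at E19.

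Zeb2, a zinc finger repressor, was at 776, 707, 880.2 and 306 CPM against means of 294, 213, 252 and 139 CPM. The 13 lower factors were Meis1, Meis2, Pbx3, Tfap2b, Tfap2d, Etv1, Sox5, Tcf7l2, Foxp2, Zfhx3, Onecut2, Esrrb and Npas3. They include homeodomain partners of the Meis and Pbx families, a Wnt effector (Tcf7l2) and a forkhead factor (Foxp2). From E19 to P21, 24 of the 38 factors tested fell 2-fold or more in EN5 and 4 rose, beside 15.4% and 11.9% of all genes, with a median log2 change of -1.25 in EN5 and -0.91 in the other subtypes. The 4 that rose were Lmo4, Zeb1, Esrrg and Npas3.

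Of 61 axon guidance genes tested, 2 were higher, Robo3 and the semaphorin Sema6a (1295, 1105, 1215 and 700.1 CPM against 584, 538, 573 and 274), and 6 were lower, Epha3, Sema3e, Plxna2, Slit3, Robo1 and Dscam, beside 0.427% and 1.65% of all genes. Dcc, the netrin receptor, was far below the others at E19 and approached them later. It was at 118, 665, 657 and 914 CPM in EN5 at E19, P4, P8 and P21, beside means of 1309, 1505, 1631 and 1618 CPM. At E19 EN5 was the lowest of 13 subtypes for Dcc, the next being EN6 at 357 CPM. From P4 on EN5 lay above EN12, which was at 333 CPM at P4, 240 at P8 and 415 at P21. A low start and a later rise were also seen in EN6, which reached 1328 CPM at P4 and 2808 CPM at P21. Sema5a, a semaphorin, had 0 UMIs at E19 and 90.7 CPM at P21, beside 73.2 and 97.8 CPM in the others. Nrp1, a semaphorin receptor, went the other way, from 839 CPM at E19 to 163 at P21, beside 302 and 158 CPM.

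All list counts against the other subtypes stand beside 0.427% higher and 1.65% lower among all genes. In the cadherin list 1 of 24 tested was higher, Cdh7, at 818, 549, 637 and 435 CPM against 193, 195, 249 and 185, and 5 were lower, Cdh12, Cdh18, Cdh20, Cdh22 and Cdh24. By P21, 7 of the 18 list members tested between stages had risen 2-fold or more and 1 had fallen, beside 11.9% and 15.4% of all genes, with a median log2 change of 0.61 in EN5 and -0.31 in the other subtypes. Among those that rose, Cdh12 went from 10.4 to 157 CPM and Cdh18 from 66.2 to 325 CPM. Both remained below the means of 476 and 1166 CPM at P21. Of 75 synapse organisers, which are surface proteins that align the pre- and postsynaptic sides, 0 were higher and 7 were lower, among them the neurexin Nrxn3, Cntnap3, Cntnap5c, Il1rapl2, Sdk1 and Sdk2.

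Lrrtm4, a synapse organiser of excitatory synapses, approached the other subtypes late. It was at 205, 469, 604 and 2304 CPM in EN5 at E19, P4, P8 and P21. EN5 was the lowest subtype in the first 3 libraries, below EN9 at 576 CPM at E19, and at P21 it was above EN9 at 1743 CPM and below the mean of 4234 CPM. The log2 ratio to the other subtypes moved from -3.23 at E19 to -0.88 at P21.

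**Figure D3:**
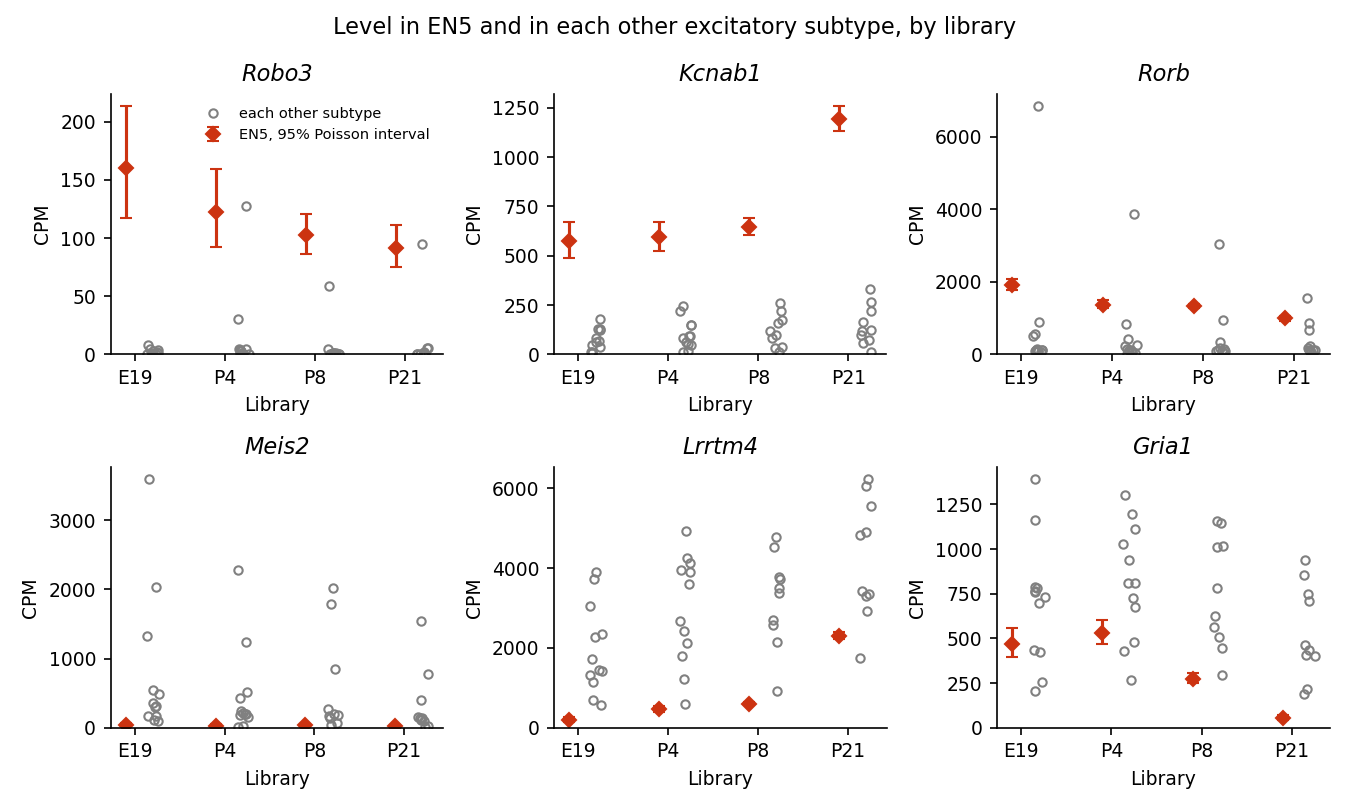
Level in CPM (linear axes from 0) of 6 genes in EN5, shown as red diamonds with exact 95% Poisson intervals, and in each other excitatory subtype with 20 or more nuclei, shown as open circles. Kcnab1 in EN5 is above every other subtype in all 4 libraries, Rorb is second to EN6, and Gria1 in EN5 is below every other subtype at P21.

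Among ion channels, Kcnab1 was the 1 potassium channel gene of 39 tested that was higher in every library, and 2 were lower, beside 0.427% and 1.65% of all genes. The 2 lower were Kcnd3, an A-type channel subunit, and Kcnip1, a partner of A-type channels that was at 66.2, 84.5, 22.3 and 29.4 CPM against 448, 431, 405 and 278. Between E19 and P21, 11 of 32 potassium channel genes tested rose 2-fold or more in EN5 and 5 fell, beside 11.9% and 15.4% of all genes. Among those that rose, Kcna1 went from 0 UMIs at E19 to 70.3 CPM at P21, beside 5.85 to 71.9 CPM in the others, and Kcnj3 from 17.4 to 223 CPM, beside 112 to 339. Among 28 sodium, calcium and HCN channel genes, Cacna2d3, an auxiliary calcium channel subunit, was lower, at 20.9 to 61.4 CPM against 271 to 306 CPM, and 0 were higher.

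Glutamate receptors had 0 higher and 4 lower genes of 20 tested, where 0.427% and 1.65% of all genes were higher and lower: the kainate receptor subunits Grik1 and Grik2 and the metabotropic receptors Grm5 and Grm8. Grik2 was at 174, 233, 178 and 297 CPM against 1311, 1233, 1011 and 1130.0. Grm7, a presynaptic metabotropic receptor, was the most above the others, at 6079, 4852, 5099 and 4297 CPM against 1702, 1856, 2193 and 2371, with a log2 ratio of 0.86 at P21 that stayed under 2-fold. Of receptors for neuromodulators and peptides, 20 were tested: Tacr1, the receptor for substance P, was higher, at 254, 127, 150 and 144 CPM against 37.1, 53.6, 68.3 and 62.2, and Htr2c, a serotonin receptor, was lower, at 48.9 CPM against 311 CPM at P21. Chrm2, a muscarinic acetylcholine receptor, rose from 38.3 to 457 CPM in EN5 and from 137 to 261 CPM in the others. Of 14 calcium-binding genes 0 were 2-fold higher in every library and 1, Necab1, was lower, at 17.4, 40.0, 61.3 and 45.4 CPM against 106, 116, 148 and 138. Calb1, a calcium buffer, came nearest to 2-fold higher with 38.3, 40.0, 59.8 and 90.7 CPM against 15.5, 25.9, 28.7 and 41.3. Of 9 neuropeptide genes tested, 0 were past 2-fold in every library. Of 18 GABA and glycine receptor genes, Glra3, a glycine receptor subunit, was lower and 0 were higher.

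**Figure D4:**
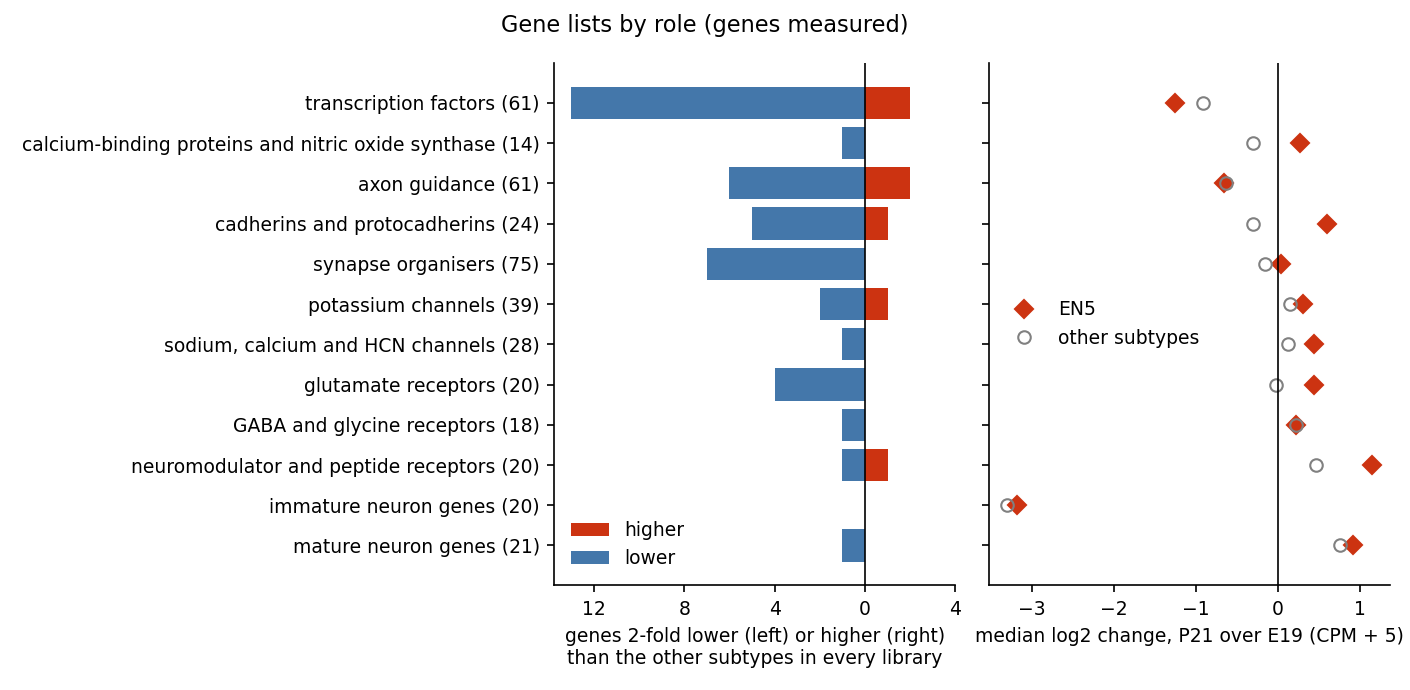
Left, number of genes per list that were 2-fold lower or higher in EN5 than in the mean of the other subtypes in every library, with the number tested in parentheses. Right, median log2 change from E19 to P21 of the list members at 50 CPM or more in EN5 at either stage, in EN5 and in the other subtypes. Transcription factors have 13 lower and 2 higher genes, and immature neuron genes lie at -3.18 in EN5 and -3.30 in the others.

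Genes were next compared between stages within EN5. From E19 to P4, 257 of 4330 genes with at least 50 CPM at either stage (5.94%) were 2-fold or more higher and 155 (3.58%) lower. From P4 to P8 the numbers were 24 of 4085 (0.588%) and 94 (2.3%), and from P8 to P21 138 of 3944 (3.5%) and 170 (4.31%). From E19 to P21, 520 of 4388 genes (11.9%) were higher and 675 (15.4%) lower. The split depended on the scaling: with median-of-ratios size factors it was 43 higher and 53 lower for P4 to P8, and 686 higher and 505 lower for E19 to P21, with the median log2 change of the latter at 0.13 in place of -0.04. Depth differs between these libraries, and the 41 nuclei of E19 give the largest counting error, and the 3 steps span unequal numbers of days, so their numbers are not compared.

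Immature neuron genes fell as a block. All 20 that were tested were 2-fold or more lower at P21 than at E19, beside 15.4% of all genes, with a median log2 change of -3.18 in EN5 and -3.30 in the other subtypes. Tubb2b, a tubulin of growing neurons, was at 853, 425, 134 and 4.45 CPM, and the others were at 764, 374, 140 and 5.03 CPM. Nnat, an imprinted gene of developing brain, was at 699.9, 356, 167 and 12.5 CPM. Igfbpl1, a secreted protein of newborn neurons, was at 296, 35.6, 16.6 and 0 CPM in EN5, and at 82.1, 24.8, 12.1 and 2.29 CPM in the others. Its 85 UMIs at E19 were in 29 of 41 nuclei, and at P21 it was at least 111-fold lower. Fabp7, a fatty acid binding protein best known from radial glia, was at 261, 118, 56.2 and 0 CPM in EN5, and at 233, 102, 57.5 and 2.44 CPM in the others.

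Early in the series, the rises from E19 to P4 were led by AC149090.1, from 52.2 to 493 CPM, Kctd16, an auxiliary subunit of GABA-B receptors, from 59.2 to 449 CPM, and the cadherin Cdh12, from 10.4 to 100.0 CPM. The other subtypes already held 412 CPM of Kctd16 at E19 and 524 at P4. AC149090.1 is annotated on an unplaced scaffold and rose by a log2 ratio of 2.36 in the other subtypes. The falls were led by Igfbpl1, by the RNA-binding protein gene Igf2bp3, from 136 to 22.2 CPM, and by Ntng2, which encodes a netrin-G protein, from 282 to 71.1 CPM. Ntng2 stayed at 312 CPM in the other subtypes at P4 and at 345 at P8.

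Between P4 and P8 Npsr1 rose most. It encodes the receptor for neuropeptide S and was at 3.48, 15.6, 168 and 111 CPM in EN5, beside 6.30, 19.9, 36.0 and 50.9 CPM in the others. Its 233 UMIs at P8 were in 31 of 103 nuclei with 48 in the richest, so most EN5 nuclei showed none. After thinning 17.5% of EN5 nuclei at P8 had an Npsr1 UMI, against 15.4% of EN9, 2.0% of EN6 and 2.7% of inhibitory nuclei. Rasgrf1, a Ras exchange factor, went from 57.8 to 160 CPM and on to 595 CPM at P21, and Nr3c2, the mineralocorticoid receptor, from 51.1 to 125 and 296 CPM. The other subtypes rose too, Rasgrf1 from 77.3 to 141 and 482 CPM and Nr3c2 from 107 to 154 and 384 CPM. The 2 largest falls of this step rested on few nuclei. Of the 50 Gm32647 UMIs at P4, 46 were in 1 nucleus, and of the 48 Otx2os1 UMIs 30 were in 1 nucleus. With only the 247 EN5 nuclei that were in cluster 14 and carried reference label 17, the log2 change of Gm32647 was 0.39 in place of -2.38. Eid1, next among the falls, went from 46 UMIs in 29 of 46 nuclei (102 CPM) to 28.1 CPM.

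Among the leading rises from P8 to P21 were Specc1 and Thrb. Specc1 went from 37.5 to 345 CPM, beside 50.7 to 378 CPM in the other subtypes. The thyroid hormone receptor gene Thrb went from 26.7 to 254 CPM, beside 83.7 to 255 CPM in the others. The leading falls were Tubb2b, Nnat and Adamtsl1, a secreted protein of the ADAMTS-like family, from 107 to 10.7 CPM.

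The change from E19 to P21 was next set beside that of the 10 other subtypes present at both stages; both use the same libraries. Of 4388 genes, 198 (4.51%) changed by at least 1 log2 unit more upwards in EN5 than in the others and 121 (2.76%) by at least 1 more downwards. Gria1, an AMPA receptor subunit, had the largest negative difference. It was at 470.1, 533, 275 and 56.9 CPM in EN5 and at 739, 849.6, 756 and 536 CPM in the others, a log2 change of -2.94 against -0.46, with the single other subtypes between -1.76 and 0.25. At P21 the lowest other subtype, EN13, was at 189.6 CPM, above the EN5 value. EN5 was also the lowest subtype at P8, but EN13, at 293 CPM, was within the EN5 interval of 248 to 304. Airn, a noncoding RNA that overlaps Igf2r on the opposite strand, went from 407 to 205 CPM in EN5 and from 92.7 to 199.6 CPM in the others. Igfbpl1 and Adamtsl1 were the other genes with large negative differences, at -2.22 and -2.02.

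The largest positive differences were in Sntg2, Bmp6, Adamts18 and Unc13c. Sntg2, a syntrophin, had 0 UMIs at E19 and was at 42.2, 97.3 and 204 CPM afterwards, at least 19.5-fold higher at P21 than the limit of E19. The other subtypes went from 71.5 to 137 CPM, and 1 of them changed by a log2 ratio of 4.20. Bmp6, a secreted growth factor of the BMP family, was at 3.48, 35.6, 18.0 and 113 CPM in EN5 and between 6.91 and 9.58 CPM in the mean of the others. The E19 level in EN5 was 1 UMI, and the single other subtypes changed by log2 ratios between -2.32 and 2.51. Adamts18, a matrix protease, was at 24.4, 111, 149 and 117 CPM against 32.1, 39.6, 44.4 and 14.3 CPM. Unc13c, which primes synaptic vesicles, went from 17.4 to 360.3 CPM in EN5 and from 262 to 585 CPM in the others, a log2 change of 4.03 in EN5, and 1 other subtype changed by 4.12. Gabrg3, a GABA-A receptor subunit from the lists, was likewise low at first, at 97.5 CPM against 743 at E19 and 588 against 996 at P21.

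Of 15 mature neuron genes tested between E19 and P21, 7 rose 2-fold or more and 1, Nefl, fell, beside 11.9% and 15.4% of all genes, with a median log2 change of 0.92 in EN5 and 0.76 in the other subtypes. Camk2a, a kinase of excitatory synapses, was at 83.6, 144, 199 and 425 CPM in EN5 and at 106, 139, 183 and 338 CPM in the others. Grin2a, an NMDA receptor subunit, was at 699.9, 896, 1065 and 1502 CPM in EN5, above the means of 513, 527, 704 and 886 CPM in each library. Snap25, a vesicle fusion protein, was at 470.1 CPM against 248 at E19 and 818 against 693 at P21.

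The likeness of EN5 to each other subtype was described by Pearson's r of log2(CPM + 5) across 8671 genes within a library; genes are not replicates and share depth and library. It lay between 0.81 and 0.94. At E19 EN4 (0.864), EN2 (0.864) and EN1 (0.863) were nearly tied. The most alike subtype was EN1 at P4 (0.902), EN9 at P8 (0.936) and EN6 at P21 (0.933). EN6 and EN9 were the 2 most alike at P8 and P21, whereas at E19 EN6 ranked 7 and EN9 ranked 5. Both had 30 nuclei at E19, against 101 and 78 at P8 and 64 and 45 at P21, and the part of that depth in r was not tested. These 2 were therefore compared with EN5 in detail, with genes chosen after their values were seen.

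Against EN6, 89 of 8920 genes (0.998%) were 2-fold or more higher in EN5 in every library and 71 (0.796%) lower. Sorcs1, a sorting receptor of neurons, was at 3910.2, 2407, 2608 and 3729.9 CPM in EN5 and at 34.7, 72.3, 99.8 and 154 CPM in EN6. Megf11, Hmcn1, Sgcd (a sarcoglycan), the transcription factor Sox6 and Mdga1 were also high in EN5 against EN6. Sox6 was at 699.9, 396, 665 and 285 CPM against 54.5, 15.1, 38.2 and 12.4. The zinc finger gene Bnc2 was the clearest in the other direction, at 146, 75.6, 26.0 and 14.2 CPM in EN5 against 2022, 1371, 1174 and 795 CPM in EN6. Kcnip1 and Gpc5, low in EN5 against all subtypes together, were also low against EN6.

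Against EN9, 69 of 9037 genes (0.764%) were higher in EN5 in every library and 80 (0.885%) lower. Robo3 was at no more than 3.67 CPM in EN9 in any library, and Rftn1 at 9.14, 33.0, 37.3 and 15.3 CPM. Sorcs1 was again higher in EN5, with 178, 407, 390.1 and 296 CPM in EN9, but it was not among the 12 highest genes against all subtypes. The nuclear receptor gene Nr5a2 was in EN9 at 51.4 to 64.0 CPM and had 1, 1, 0 and 0 UMIs in EN5. Bnc2 and Gpc5 were again lower in EN5. Thus Sorcs1 was higher and Bnc2 and Gpc5 were lower in EN5 than in either neighbour in every library, and Robo3 was shared in part with EN6.

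EN5 nuclei were not uniform. Over 1739 genes with a mean of 0.2 or more UMIs per thinned nucleus in each library, the median ratio of variance to mean was 1.11, 1.09, 1.09 and 1.09, near the value of 1 that counting alone gives. The 8 genes taken as most uneven over the 4 libraries were Gm28928, a long noncoding RNA, Kcnip4, a partner of A-type potassium channels, the teneurins Tenm3 and Tenm2, Galntl6, the protocadherin Pcdh7, Fam19a1 and the contactin Cntn4. Gm28928 had a ratio of 9.01, 16.5, 14.4 and 15.8 at E19, P4, P8 and P21. It was at 0 UMIs in 78.0%, 52.2%, 55.3% and 45.7% of nuclei and reached 17, 36, 39 and 38 UMIs in the richest. Kcnip4 ranged from 0 to 37, 33, 42 and 35 UMIs with medians of 9, 6.5, 11 and 17.

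Kcnip4 and Pcdh7 tended to be high in different EN5 nuclei. Their correlation over nuclei was -0.69 at E19 (41 nuclei), -0.59 at P4 (46), -0.59 at P8 (103) and -0.44 at P21 (70), on log2(UMIs + 1) of thinned nuclei. Kcnip4 was also opposed to Galntl6, at -0.54, -0.59, -0.54 and -0.43, and Galntl6 went with Pcdh7 at 0.60, 0.61, 0.65 and 0.18. Gm28928 was opposed to Tenm2 at -0.33, -0.46, -0.64 and -0.47 and went with Cntn4 at 0.64, 0.57 and 0.40 after E19, where the value was -0.07. The nuclei of a library share 1 preparation, and the pairs were chosen after their values were seen. With only nuclei of cluster 14 and reference label 17, Kcnip4 and Pcdh7 gave -0.61, -0.61, -0.59 and -0.43.

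**Figure D5:**
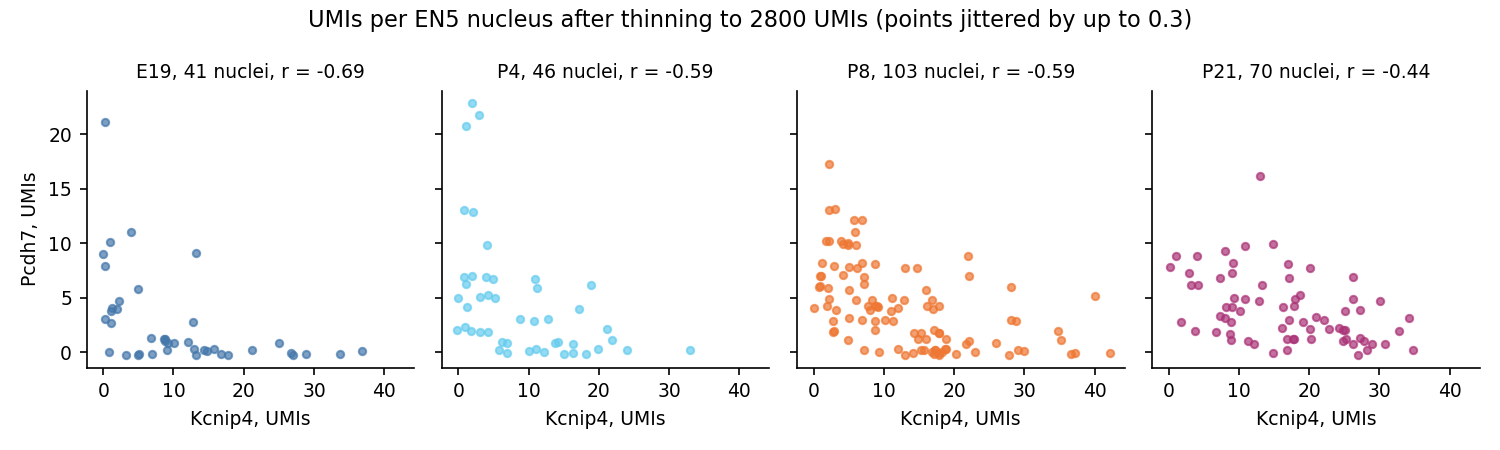
Each point is an EN5 nucleus thinned to 2800 UMIs, with its Kcnip4 UMIs on the horizontal and its Pcdh7 UMIs on the vertical axis, 1 panel per library. Nuclei rich in either gene tend to hold fewer UMIs of the other, with r from -0.69 at E19 to -0.44 at P21.

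The authors' reference labels divided some of these genes. In nuclei labelled ESC2, Gm28928 was at 476, 3141, 2246 and 5174 CPM in the 4 libraries, and in nuclei labelled ESC1 at 368, 909, 1916 and 955 CPM. Galntl6 was higher in ESC1 nuclei in each library, at 3010.2 against 1215 CPM at E19 and 3407 against 1778 CPM at P21. Pcdh7 had no fixed order, with 1261 CPM in ESC1 against 795 in ESC2 at E19 and 1888 against 2077 at P4. The 2 labels had 16 and 25 nuclei at E19, 21 and 24 at P4, 38 and 63 at P8 and 17 and 54 at P21, and since the labels were made from expression these values describe them only.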

How the data were processed

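Single-nucleus RNA-seq libraries of 4 stages, 1 each, were analysed. Per the labels' protocols, nuclei were captured with 10x Genomics 3′ v3 chemistry and processed with Cell Ranger 3.0.2 (per the submitters' processing notes) against a pre-mRNA mm10 reference, so intronic reads were counted. The authors deposited raw UMI counts per gene and nucleus and a table of labels; its percent of mitochondrial UMIs, also deposited by the authors, had medians of 0.620, 0.707, 0.255 and 0.152 in EN5. Another 5 columns of values were not used. Filters on nuclei, doublet treatment and use of strand are not given in the sources used here; no doublet caller was run, and genes that overlap (Kcnab1, Hmcn1, Maf, Mgll, Lhfp, Prmt8 and Itga7 with opposite-strand genes, for example) may share UMIs.

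UMIs were summed per library and subtype and scaled to CPM with Python 3.11.15, numpy 2.4.6 and scipy 1.17.1. The methods were tested on simulated data. Intervals were exact Poisson (CPM), exact Clopper-Pearson (shares) or from Poisson errors on log2 ratios, all at 95%; PCR duplicates were collapsed by UMI, and intervals cover counting error only. Zero counts were given a limit of 3 counts per library. For shares and variance, nuclei were thinned to 2800 UMIs, leaving out 1 shallower EN5 nucleus at P21, with 300 inhibitory nuclei sampled per library. Named genes were the 12 highest and 8 lowest by least extreme ratio (50 CPM or more on the higher side), the 3 largest rises and falls per step (100 CPM or more), the 4 largest differences of change each way, the leading list members, the 8 most uneven genes and the markers; genes set against EN6 and EN9 alone and the pairs of uneven genes were chosen after their values were seen. Members and lists were chosen with earlier results of these data known. Gene positions are from GENCODE M21 (mm10), which held 31011 of 31053 identifiers. Some genes that meet these rules are not reported here. Alternatives are given at the end.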

Additional observations from a re-analysis of the deposited data

How the results depend on the processing

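No paired analysis was possible because each stage had 1 library. The EN5 share of excitatory nuclei stayed within its interval in all 4 libraries with a higher minimum of UMIs per neuron, without subtypes under 20 nuclei, without EN7, and with only the 247 nuclei of cluster 14 and reference label 17, an alternative chosen after seeing the data. Leaving out each library in turn gave 38 to 70 genes higher and 155 to 187 lower than the other subtypes. As a call needs a 2-fold ratio in every library, leaving out 1 can only add genes, apart from those lost to the level filter. The 70 were without P21, and why P21 mattered most was not tested. With 20 CPM added, 78 genes were lower; between stages, 147 were higher and 73 lower for E19 to P4, 10 and 35 for P4 to P8, and 85 higher for P8 to P21. With a floor of 20 in place of 50 CPM, the higher and lower counts were 650 and 453, 75 and 284, 246 and 372, and 899 and 1302 for E19 to P4, P4 to P8, P8 to P21 and E19 to P21, because more genes were tested. Median-of-ratios scaling gave 43 and 53 for P4 to P8, where it moved the median log2 change from -0.06 to 0.06. Of 76 recomputed counts and shares, 59 stayed within 1.5 times or within their interval. Of 655 recomputed log2 ratios of named genes, 607 stayed within their interval, 47 moved beyond it without changing direction (24 of these with 20 CPM added), and 1 reversed, Gm32647 from P4 to P8, at 0.39 with only nuclei of cluster 14 and reference label 17. With nuclei weighted alike, the ratios of Dpysl3 and Stmn1, near 0, changed sign within their intervals. All 37 higher genes were kept under median-of-ratios scaling, and 33 with the other nuclei pooled. Depth limits E19 most, where 3 UMIs in EN5 make 10.4 CPM.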
